A study of Mus musculus with 21 samples.

Results

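Open chromatin was examined at 7 mouse genes that hold back the cell division cycle and act as tumour suppressors: Trp53, Cdkn1a, Cdkn1b, Cdkn1c, Cdkn2a, Cdkn2c and Rb1. They are 7 of 21883 protein-coding genes in the mm10 RefSeq annotation. Each gene was taken with its body and 20 kb on each side, and the data were the peak summits inside these windows that ranked among the 100000 strongest of their library, called kept summits below. The 7 windows held 1404 kept summits over 21 libraries. When kept summits of all libraries were merged into regions of 500 bp, 113 of 271215 regions lay in the 7 windows. The choice of 100000 splits a continuous scale: 124 summits of these windows ranked between 90001 and 100000 and were kept, and 132 fell among the next 10000 ranks and were not.

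The libraries were made with Omni-ATAC, in which a transposase cuts accessible DNA, to follow medulloblastoma from its progenitor cells and to ask what loss of the NFI transcription factors does in a tumor cell line. There were 7 groups of 3 libraries. Primary cells came from cerebella of Atoh1EGFP mice, which carry EGFP with Atoh1, the gene of a granule lineage factor. GNP are granule neuron progenitors taken at postnatal day 7, with titles that begin with Ptch1 and a genotype that no label states. Hyperplasia cells were taken at postnatal day 28, and tumor cells were sorted for EGFP from cerebella with medulloblastoma at an age not given. The protocol enriched the first 2 groups on a density gradient, so the primary groups were not all isolated in the same way. VDR is a mouse medulloblastoma cell line, a single line, profiled untreated, with a control siRNA (siNC), or with an siRNA against Nfia (siNfia) or Nfib (siNfib). No label says if the 3 libraries of each group are from different animals or cultures, so p-values measure the spread between these libraries, which may be technical. The series describes these as siRNA, while the deposited files of the 9 treated libraries have names with sh in place of si, so the kind of knockdown is not settled. How far Nfia and Nfib were reduced cannot be read from summit lists.

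Cyclin-dependent kinases drive the cell through division, and the genes studied here oppose them at several points. The Cip/Kip inhibitors p21 (Cdkn1a), p27 (Cdkn1b) and p57 (Cdkn1c) bind cyclin and kinase complexes, while the INK4 inhibitors p16 (Cdkn2a) and p18 (Cdkn2c) bind CDK4 and CDK6. Those kinases inactivate the retinoblastoma protein, the product of Rb1, which otherwise represses E2F target genes. Cdkn2a has a distal start that makes p19Arf, a protein that frees p53 (Trp53) from its inhibitor Mdm2, and p53 in turn induces Cdkn1a. In granule neuron progenitors, Sonic hedgehog signalling maintains division through D-type cyclins, p27 accumulates as the cells stop dividing, and loss of Trp53, Cdkn1b or Cdkn2c is known to speed medulloblastoma in mice with a Ptch1 mutation.

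The lists held 159720 to 279584 summits, and the score at rank 100000 ran from 3.76 to 28.9. Untreated VDR libraries stood apart, with the lowest scores at that rank (3.76 to 3.97) and 39 to 57 kept summits in the 7 windows, against 59 to 79 in the other 18 libraries. Results that involve the cell line are therefore given against tumor both for untreated and for siNC-treated cells. Read depth is unknown, so no counting interval can be given. Of 10 granule lineage genes, each had a kept summit within 1 kb of its start in every GNP, hyperplasia and tumor library, as did 8 in every untreated VDR library. Summed kept summits at these 10 genes were 261 to 320 in the primary groups, 459 to 509 in untreated VDR cells and 262 to 298 in siRNA-treated cells. Kept summits at 5 markers each of other cell types summed, in primary and VDR libraries, to 33 to 49 and 41 to 54 for astrocytes, 32 to 44 and 28 to 37 for oligodendrocytes, 9 to 12 and 14 to 31 for microglia, 22 to 30 and 16 to 26 for endothelial cells and 11 to 17 and 9 to 21 for fibroblasts. At most 1 gene of each of these lists was at 0 in every library of a group. The microglial gene Csf1r was at 0 in all GNP, hyperplasia and siRNA-treated libraries and the astrocyte gene Aqp4 in all GNP and VDR libraries. Per primary group, a promoter summit was kept in every library for 1 to 2 of 5 astrocyte and 2 to 3 oligodendrocyte genes. The same held for 1 to 2 endothelial genes, 1 microglial gene and 1 fibroblast gene. The part of other cells in the results was not tested. In pooled cells a larger share of cells with an open site and a wider opening in each cell cannot be told apart.

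The sequences just before 5 gene starts are shown, with motif matches in capitals. They are the starts of Cdkn1b, Cdkn1a, Cdkn2a (p19Arf) and Cdkn2c whose regions are described below, and the distal Cdkn1a start, shown for its p53 site although no kept summit lay within 1 kb of it. The Trp53 start, with 1 CCAAT match, and the p16 start of Cdkn2a, with no match, were also ranked and are not shown. Starts were listed in the RefSeq promoter table (GRCm38.p6, the mm10 assembly) for 5 of the 7 genes, and the names without an entry are Cdkn1c and Rb1. Each sequence is the 250 bases before the start, written 5′ to 3′ on the strand of the gene. Both strands were searched for these letters. TTGGCA stands for the motif of NFI factors, GACCACCCA for that of the Hedgehog effectors GLI, and TTTCCCGC or TTTGGCGC for that of E2F. GGGCGG is the GC box of SP factors and CCAAT the box bound by NF-Y. The E-box was searched as CAGCTG and the site of AP-1 as TGANTCA, and the p53 site as a pair of its known elements at most 13 bases apart. Capitals for the p53 site include the bases between the paired elements. No matches of different motifs overlapped in the sequences shown. The share of 32851 promoters with a match was 12.3% for NFI, 0.895% for the first E2F form, 32.7% for the GC box, 33.8% for CCAAT and 0.0639% for the p53 site. A match describes letters and does not show that a factor binds.
Cdkn1b, chr6:134920151-134920400, plus strand, TTGGCA, GC box and CCAAT in capitals: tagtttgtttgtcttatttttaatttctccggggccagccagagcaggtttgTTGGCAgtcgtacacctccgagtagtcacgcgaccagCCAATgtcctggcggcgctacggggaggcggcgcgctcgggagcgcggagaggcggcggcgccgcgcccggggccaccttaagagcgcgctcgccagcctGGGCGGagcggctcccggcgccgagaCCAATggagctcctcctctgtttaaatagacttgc
Cdkn1a distal start, chr17:29090729-29090978, plus strand, p53 site in capitals: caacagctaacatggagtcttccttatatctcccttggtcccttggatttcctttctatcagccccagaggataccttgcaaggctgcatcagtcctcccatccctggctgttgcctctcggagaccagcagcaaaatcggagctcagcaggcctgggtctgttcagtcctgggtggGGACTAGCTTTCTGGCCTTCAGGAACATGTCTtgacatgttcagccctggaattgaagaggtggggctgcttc
Cdkn1a internal start, chr17:29093519-29093768, plus strand, GC boxes in capitals: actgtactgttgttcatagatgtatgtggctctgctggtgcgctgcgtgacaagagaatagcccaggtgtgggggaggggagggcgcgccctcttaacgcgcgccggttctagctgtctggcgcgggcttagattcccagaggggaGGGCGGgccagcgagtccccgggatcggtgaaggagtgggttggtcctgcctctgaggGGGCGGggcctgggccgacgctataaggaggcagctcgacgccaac
Cdkn2a p19Arf start, chr4:89294620-89294869, minus strand, E2F and GC boxes in capitals: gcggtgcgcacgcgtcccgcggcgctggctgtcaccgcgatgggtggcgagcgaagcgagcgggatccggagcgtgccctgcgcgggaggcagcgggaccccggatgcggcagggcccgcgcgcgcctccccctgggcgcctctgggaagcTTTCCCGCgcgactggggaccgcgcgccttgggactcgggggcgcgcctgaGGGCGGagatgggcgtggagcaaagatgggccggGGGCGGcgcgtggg
Cdkn2c distal start, chr4:109666757-109667006, minus strand, GC boxes in capitals: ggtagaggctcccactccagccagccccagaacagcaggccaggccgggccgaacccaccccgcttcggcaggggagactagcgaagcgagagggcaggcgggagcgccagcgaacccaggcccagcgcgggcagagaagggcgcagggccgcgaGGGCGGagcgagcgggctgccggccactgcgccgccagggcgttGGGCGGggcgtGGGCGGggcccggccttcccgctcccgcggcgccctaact
The Cdkn1b stretch had 64.4% G and C and 28 CpG, and those of the p19Arf start and the Cdkn2c distal start had 78.4% with 40 CpG and 77.2% with 29 CpG. The Cdkn1a distal start had 54% and 2 CpG, near the median of all promoters for G and C (52.4%) and below it for CpG (6).

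Across the stages, summits became more numerous at Cdkn1a and the Cdkn1b promoter gained rank in tumor, while the other genes stayed below the threshold of the tests. Between tumor and the cell line the picture was broader: Cdkn2a lost summits, the promoters of Cdkn1b, Cdkn1c and Rb1 fell in rank, and the Cdkn1a promoter rose in rank in untreated VDR cells. No gene of the 7 was called between the knockdowns and siNC. Summit numbers were compared on the log2(count + 1) scale and promoters on the log2 rank of the strongest kept summit within 1 kb of a start, both with limma over all genes and Benjamini-Hochberg adjustment at 0.05. A lower rank number means a stronger summit. For Cdkn1c and Rb1, which had no listed start, both gene ends served in place of a start.

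**Figure D1:**
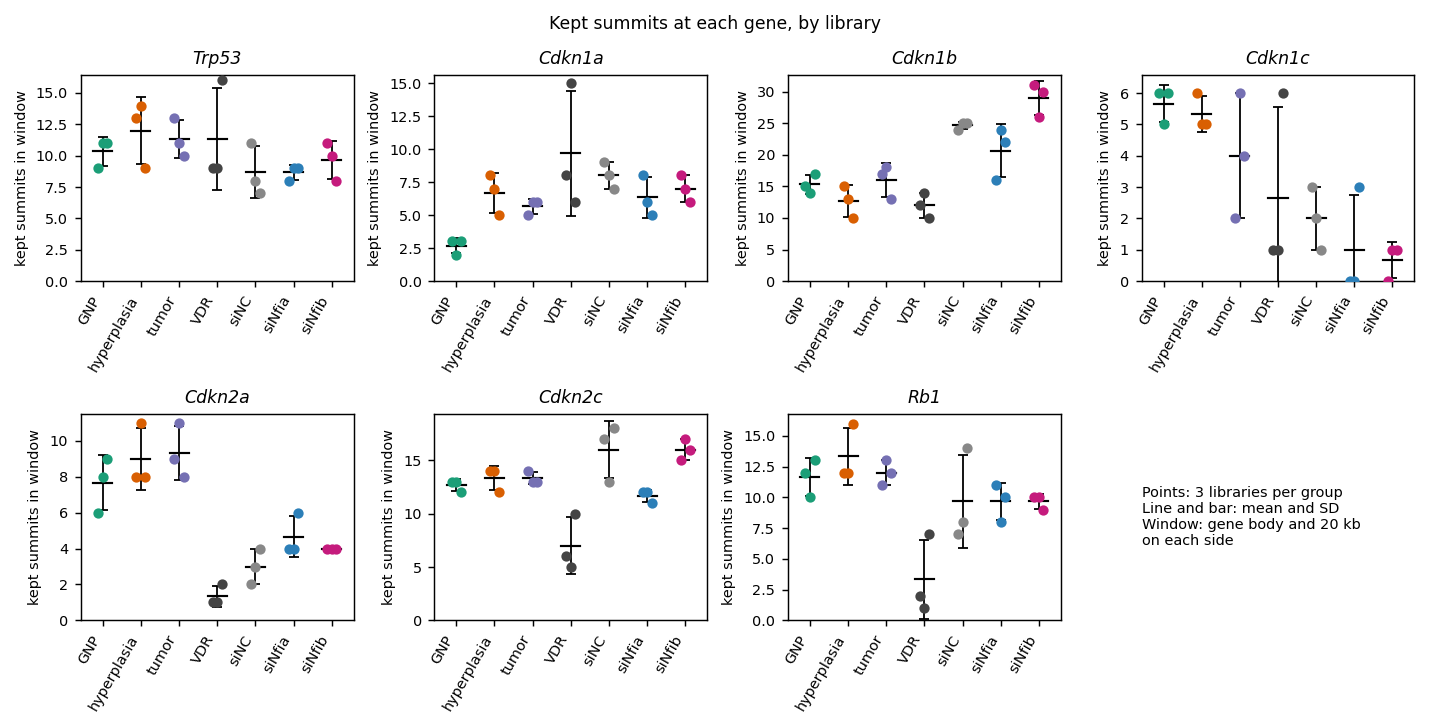
Kept summits in the gene body and 20 kb on each side (vertical axis, number per library) for the 7 genes in the 7 groups; points are libraries, horizontal lines means and bars SD (cut at 0), n = 3. Cdkn1a had 2 to 3 summits in GNP and 5 to 8 in hyperplasia, Cdkn2a fell from 8 to 11 in tumor to 1 to 2 in untreated VDR cells, and Cdkn1b was highest with siNfib at 26 to 31.

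By summit number, 1 of 7 genes was called between hyperplasia and GNP, where 4.51% of 14108 genes were called, 0 of 7 between tumor and hyperplasia (0.198% of genes; 2366 genes had an unadjusted p below 0.05), and 1 of 7 between tumor and GNP (6.63%). Of 6 genes tested against tumor, 3 were called in untreated VDR cells, where 48.6% of genes were called, and 2 with siNC (25.2%). By promoter rank, 0 of 7 were called between hyperplasia and GNP (4.46% of 13363 genes; 2399 at an unadjusted p below 0.05), 1 between tumor and hyperplasia (6.75%), 1 between tumor and GNP (7.75%), 4 between untreated VDR and tumor (29.3%) and 3 between siNC and tumor (21%). The share called among the 7 was thus close to that of all genes in the cell line comparisons by summit number. The median rank of all genes also moved, by 0.22 and 0.18 on the log2 scale in tumor against hyperplasia and GNP and by 0.56 and 0.26 in untreated and siNC-treated VDR cells against tumor. Comparisons with tumor or siNC in common share those libraries.

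**Figure D2:**
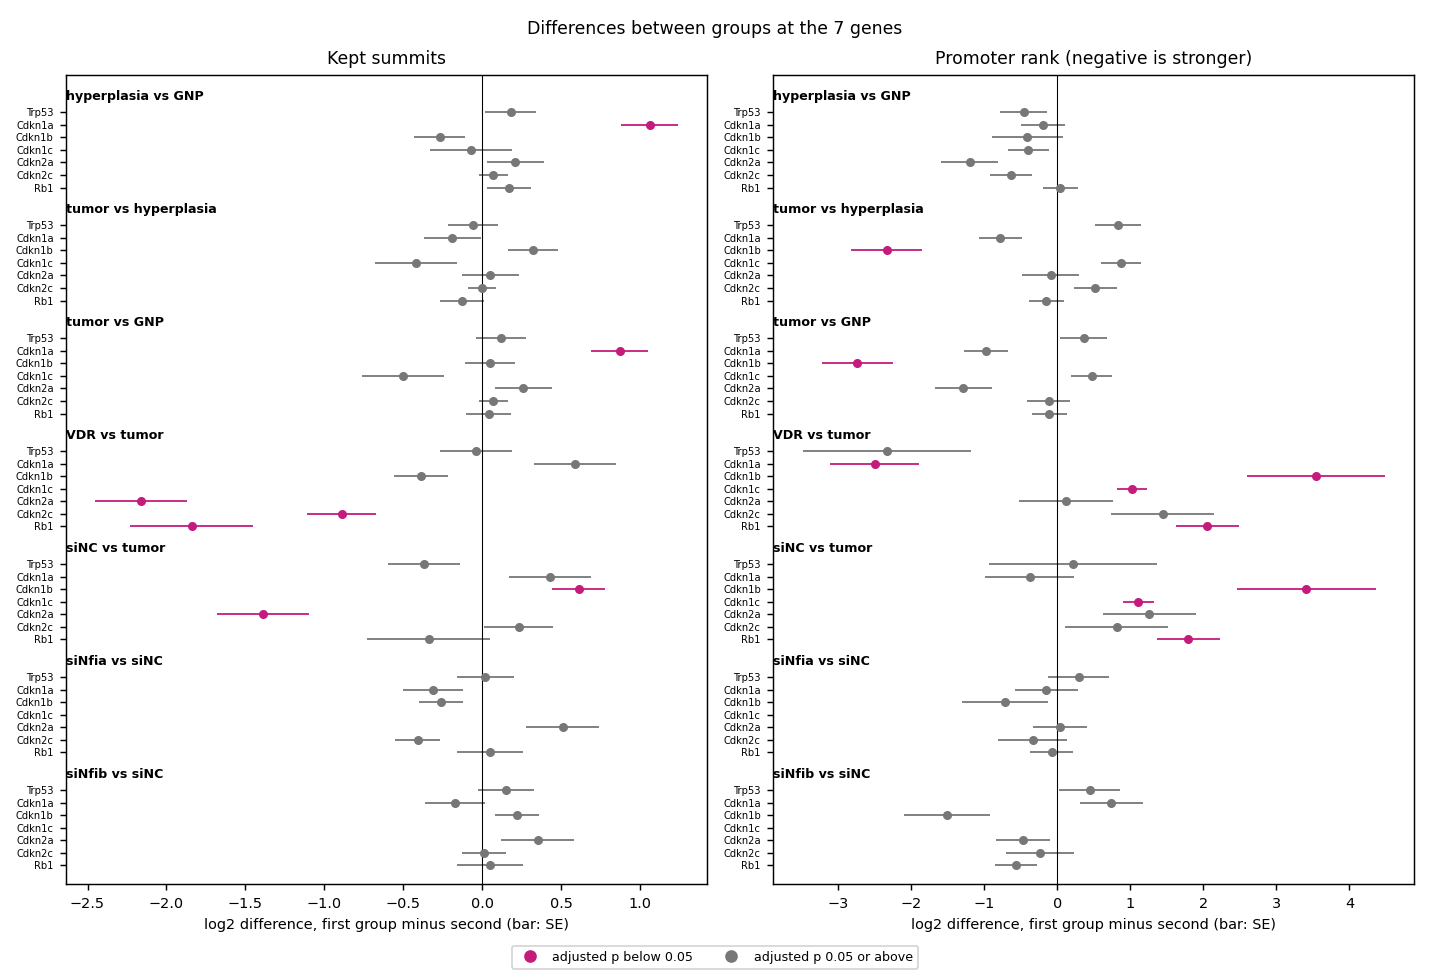
Log2 differences between groups, first named minus second, for summit number on the log2(count + 1) scale (left) and promoter rank (right, negative is stronger); points are limma estimates, bars SE, and pink marks an adjusted p below 0.05. Cdkn1a stands at 1.06 by number in hyperplasia against GNP and Cdkn1b at -2.74 by rank in tumor against GNP, and no gene is pink in the knockdown comparisons.

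Trp53, the gene of p53, had a similar number of summits in all groups. It had 9, 11 and 11 kept summits in GNP, 13, 14 and 9 in hyperplasia, 13, 11 and 10 in tumor, 9, 9 and 16 in untreated VDR cells, 11, 8 and 7 with siNC, 8, 9 and 9 with siNfia and 11, 10 and 8 with siNfib. All groups overlapped the tumor group except siNfia (8 to 9 against 10 to 13), a pair that was not compared. No summit difference at Trp53 passed the test, the estimates running from -0.37 (SE 0.23, adjusted p = 0.277, siNC vs tumor) to 0.18 (SE 0.16, adjusted p = 0.59, hyperplasia vs GNP). The summits cluster where Trp53 and Wrap53, which starts beside it on the other strand, meet. The region at chr11:69579103-69579602, 104 bp from the Wrap53 start and 1006 bp before that of Trp53, was occupied in all 21 libraries and was the strongest of the window, at ranks 591, 715 and 411 in GNP, 564, 387 and 870 in hyperplasia and 3351, 481 and 2455 in tumor. At the Trp53 start itself the region at chr11:69580057-69580556 was occupied in 20 libraries, at ranks 14618 to 23962 in GNP and 18420 to 33228 in tumor.

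The Trp53 promoter rank was 23962, 21148 and 14618 in GNP, 9234, 19410 and 15798 in hyperplasia and 33228, 25748 and 18420 in tumor. Hyperplasia and tumor overlapped, and their difference of 0.83 (SE 0.32) had an adjusted p of 0.125. In untreated VDR cells the 3 ranks spread from 475 to 32033, and the estimate against tumor, -2.34 (SE 1.15, adjusted p = 0.142), turned to 0.21 when the distance was 2 kb, which takes in the Wrap53 region in tumor. The estimate was called without VDR replicate 3 (-3.69, adjusted p = 0.0129). The ranks of VDR replicates 1 and 2, 475 and 7948, were those of the Wrap53 region, whose summits there fell within 1 kb of the Trp53 start. At the region of the Trp53 start itself the untreated VDR ranks were 150891, which was not kept, 27287 and 32033. Downstream, a region 625 bp past the gene end, at chr11:69592248-69592747, ranked 94736, 118942 and 77497 in GNP, 52280, 52781 and 21632 in hyperplasia and 6662, 5837 and 4761 in tumor. These ranks do not overlap between the stages, and the region was chosen after its values were seen, with no test. It was kept in 1 of 3 untreated VDR libraries, at rank 40515.

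Cdkn1a, which makes p21, was the gene of the 7 whose summit number rose from GNP to the later stages. It had 3, 2 and 3 kept summits in GNP, 8, 7 and 5 in hyperplasia and 5, 6 and 6 in tumor. Every hyperplasia and tumor library lay above every GNP library; groups did not overlap in this direction or the other for 17.3% and 20.7% of all genes. The log2 difference was 1.06 (SE 0.18, limma adjusted p = 0.0171) for hyperplasia against GNP, which is 2.08-fold on the count + 1 scale, and 0.87 (SE 0.18, adjusted p = 0.0257) for tumor against GNP, or 1.83-fold. Tumor and hyperplasia differed by -0.19 (SE 0.18, adjusted p = 0.66). The calls were lost with whole lists, where GNP had 16, 15 and 14 summits and the differences were 0.05 (adjusted p = 0.953) and -0.07 (adjusted p = 0.899), and in a fit with the untreated VDR libraries (adjusted p = 0.0769 and 0.112). They were also lost without GNP replicate 1, 2 or 3 or hyperplasia replicate 1 or 2 (adjusted p 0.0505 to 0.0725) for hyperplasia, and without any 1 of the 6 libraries for tumor (0.0551 to 0.095).

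Much of the rise at Cdkn1a lay upstream of the gene: within the gene body alone the differences were 0.53 (adjusted p = 0.252) and 0.21 (adjusted p = 0.671). Of 8 regions of the window occupied in GNP or hyperplasia, 2 were gained. That is, they were occupied in 3 of 3 hyperplasia libraries and 0 of 3 GNP libraries. The same 2 were gained in tumor against GNP. Over the 7 windows together, 2 of 61 regions (3.28%) and 2 of 59 (3.39%) were gained, against 4.72% and 4.74% of all regions. No region of the 7 windows, 0 of 59, was lost in tumor against GNP, where 4.35% of all regions were. Both gained regions lie inside Trp53cor1, the long noncoding RNA gene upstream of Cdkn1a known as lincRNA-p21 and induced by p53. The region at chr17:29078814-29079313, 11915 bp before the distal Cdkn1a start, ranked 58329, 97332 and 81074 in hyperplasia and 37513, 22527 and 18108 in tumor. In the whole GNP lists it was present at ranks 185544, 244008 and 120500, below the 100000 kept. It ranked 5093, 16299 and 1455 in untreated VDR cells, the strongest of all groups, and was kept in 3 of 3 siNC, 1 of 3 siNfia and 3 of 3 siNfib libraries. Its neighbour at chr17:29078041-29078540 was kept in all 6 hyperplasia and tumor libraries and in none of the other 15. GNP whole lists held it too, at 103891, 111377 and 120499, just outside the threshold.

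Promoter summits of Cdkn1a lay at the internal start, and no kept summit was found within 1 kb of the distal start. The sequence of the distal start above carries a match to the p53 site, with the bases between its elements, at bases 73 to 42 before the start. The region at chr17:29093456-29093955, 63 bp before the internal start, was occupied in all 21 libraries. Its ranks were 72459, 82980 and 47659 in GNP, 54850, 27546 and 24817 in tumor and 4373, 16300 and 3708 in untreated VDR cells. The promoter rank of Cdkn1a was stronger in untreated VDR cells than in tumor by -2.50 (SE 0.61, adjusted p = 0.00982), or 5.67-fold in rank, with no overlap (3708 to 12688 against 24817 to 54850), as at 44.1% of all promoters. That call was lost without tumor replicate 1 (-2.15, adjusted p = 0.0574). With siNC the difference was -0.38 (SE 0.61, adjusted p = 0.71), which did not pass, and the difference between untreated and siNC-treated cells was not tested. In tumor against GNP it was -0.98 (SE 0.30, adjusted p = 0.0595) and against hyperplasia -0.78 (SE 0.30, adjusted p = 0.127), and both were called without tumor replicate 1 (-1.33, adjusted p = 0.0126, and -1.13, adjusted p = 0.042). By number, untreated VDR cells had 8, 15 and 6 summits at Cdkn1a, a difference of 0.59 from tumor (SE 0.26, adjusted p = 0.0733) that became -1.44 (adjusted p = 0.00193) once the level of genes within 2 Mb was taken off. It was called without VDR replicate 3 (0.85, adjusted p = 0.0158) and with whole lists (0.70, adjusted p = 0.0181). The level of genes within 2 Mb was not taken off the promoter ranks.

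**Figure D3:**
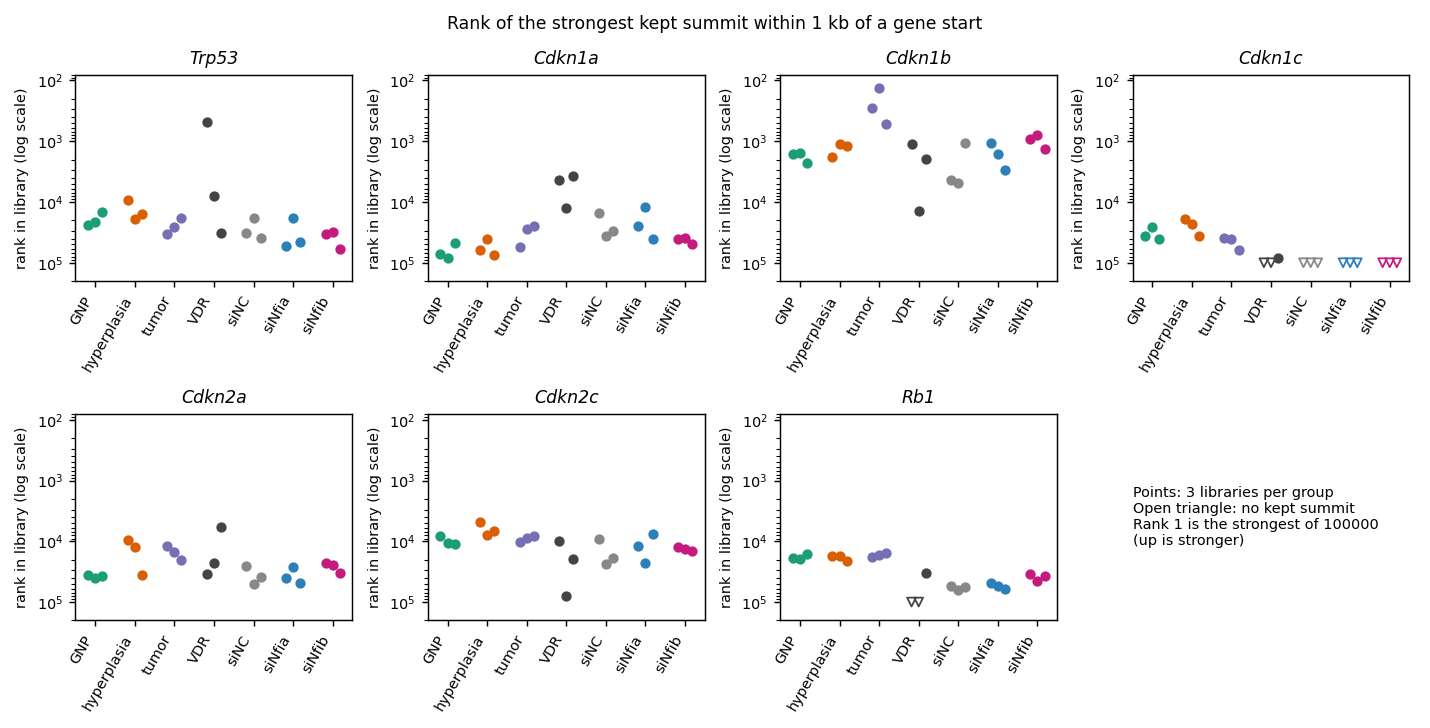
Rank of the strongest kept summit within 1 kb of a start (vertical axis, log scale, stronger upwards) for the 7 genes; points are the 3 libraries of each group and open triangles libraries with no kept summit there. Cdkn1b ranks lie at 132 to 523 in tumor and 1540 to 2323 in GNP, and Cdkn1c has triangles in 2 of 3 untreated VDR libraries and all 9 siRNA-treated libraries.

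Cdkn1b, which makes p27, had the highest ranked promoter of the 7 genes in tumor and gained rank there. The promoter summit ranked 1626, 1540 and 2323 in GNP, 1840, 1114 and 1219 in hyperplasia and 280, 132 and 523 in tumor. All 3 tumor libraries lay above all 6 others; groups did not overlap at 23.8% of all promoters between tumor and hyperplasia and at 30.9% between tumor and GNP. The log2 difference was -2.34 (SE 0.49, limma adjusted p = 0.011) against hyperplasia and -2.74 (SE 0.49, adjusted p = 0.00245) against GNP, a rank 5.06-fold and 6.7-fold stronger. The median promoter moved the other way, by 0.22 and 0.18. Ranks were not set against those of nearby genes, so a shift of the wider neighbourhood was not tested. Both calls held without each library in turn (adjusted p 0.00458 to 0.0385 and 0.00105 to 0.0227), and both were lost in a fit with the untreated VDR libraries (0.225 and 0.0898).

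The summit lies in the region at chr6:134920122-134920621, 29 bp before the Cdkn1b start, over the sequence shown above with TTGGCA at bases 198 to 193 and CCAAT at bases 161 to 157 and 35 to 31. In the cell line the strongest kept summit within 1 kb ranked 1099, 13897 and 1985 untreated and 4424, 4935 and 1055 with siNC. In replicate 2 of both groups it lay outside this region, which ranked 34228 untreated and 5232 with siNC there. The promoter rank was weaker than in tumor by 3.54 (SE 0.95, adjusted p = 0.016) and 3.41 (SE 0.95, adjusted p = 0.0245), or 11.6-fold and 10.6-fold in rank. Neither group overlapped tumor, as at 44.1% and 48.5% of all promoters. The first call was lost without tumor replicate 2 (adjusted p = 0.0674), and the second without tumor replicate 1 or 2 or siNC replicate 1 or 2 (0.0666 to 0.105).

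Kept summits at Cdkn1b numbered 15, 14 and 17 in GNP, 15, 13 and 10 in hyperplasia and 17, 18 and 13 in tumor, with no called difference between stages (0.05 to 0.32 in tumor, adjusted p 0.353 to 0.883). Between GNP and hyperplasia 3 of 13 regions were lost, that is occupied in 3 of 3 GNP and 0 of 3 hyperplasia libraries, where 4.42% of all regions were. They lie 3066 bp before the start (chr6:134917085-134917584), 1696 bp inside the gene (chr6:134921847-134922346) and 7009 bp past the start (chr6:134927160-134927659). Their GNP ranks, 63780 to 87766, sat near the limit of 100000, and whole hyperplasia lists held each of them in at least 2 of 3 libraries. None of the 3 counted as gained again in tumor, where they were kept in 1, 2 and 2 libraries.

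Summits at Cdkn1b were most numerous in siRNA-treated cells, with 24, 25 and 25 with siNC, 16, 24 and 22 with siNfia and 31, 26 and 30 with siNfib, against 12, 14 and 10 in untreated cells. The untreated cells did not pass against tumor (-0.39, SE 0.17, adjusted p = 0.0687). They did with whole lists (-0.81, adjusted p = 0.00241) and in the gene body (-1.16, adjusted p = 0.0059). They also did by occupied regions (-0.60, adjusted p = 0.00985) and against the local level (-0.47, adjusted p = 0.0405). Leaving out tumor replicate 3 or VDR replicate 2 gave a call too (adjusted p = 0.0349 and 0.0282). With the 50000 highest summits the difference was 0.04 (adjusted p = 0.85). With siNC the number was above tumor by 0.61 (SE 0.17, adjusted p = 0.0153), or 1.52-fold. That call was lost with whole lists, in the gene body, by occupied regions, against the local level and without tumor replicate 3 or siNC replicate 2 or 3 (adjusted p 0.0509 to 0.73). Many of these summits lie downstream around Lockd, a long noncoding RNA gene next to Cdkn1b. A region 400 bp from the Lockd start (chr6:134928442-134928941) was occupied in all 21 libraries, at ranks 2682 to 5622 in GNP and 1156 to 1804 in tumor, which do not overlap. Inside Lockd the region at chr6:134930844-134931343 was kept in 0 of 3 GNP, 0 of 3 hyperplasia, 2 of 3 tumor, 1 of 3 untreated VDR and all 9 siRNA-treated libraries. The region upstream at chr6:134917085-134917584 ranked 15683 to 42597 in those 9 libraries, above all GNP libraries.

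Cdkn1c, an imprinted gene that makes p57, had fewer kept summits in most cell line libraries than in most primary ones, with untreated VDR replicate 3 an exception. It had 6, 5 and 6 kept summits in GNP, 6, 5 and 5 in hyperplasia and 2, 6 and 4 in tumor, against 1, 1 and 6 in untreated VDR cells, 3, 2 and 1 with siNC, 0, 0 and 3 with siNfia and 0, 1 and 1 with siNfib. No stage difference in number was called (-0.50, SE 0.26, adjusted p = 0.292 in tumor against GNP), and in the cell line the mean number was too low for the test. Whole lists held 2, 4 and 8 summits in untreated VDR cells and 6, 4 and 5 with siNC. Its promoter rank was 36286, 25809 and 40197 in GNP, 19371, 23048 and 36612 in hyperplasia and 39652, 40219 and 62181 in tumor. Hyperplasia and tumor did not overlap, as at 23.8% of all promoters. That difference did not pass (0.87, SE 0.28, adjusted p = 0.0702) but did without hyperplasia replicate 3 (1.13, adjusted p = 0.0183). In VDR cells the promoter was weaker than in tumor by 1.02 (SE 0.21, adjusted p = 0.00379) untreated and 1.11 (SE 0.21, adjusted p = 0.00308) with siNC. Untreated VDR replicate 3 kept a summit within 1 kb of a gene end, at rank 83116. The other untreated and all siNC libraries kept none. That summit lay in a region 795 bp below the lower gene end, not at the upper end where the primary summits lay. Both values are limited by the rank given to libraries with no kept summit, 1 past the last one kept. The first was lost at 2 kb (0.65, adjusted p = 0.168), where replicate 3 had another region 1438 bp below the lower end, at rank 38452.

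The promoter ranks in primary cells came from the region at chr7:143460865-143461364, 56 bp above the upper gene end. It was kept in 9 of 9 primary libraries and was in 0 of 12 VDR lists even when whole lists were searched. A region below the gene, chr7:143447015-143447514, was kept in all 9 primary libraries at ranks 11598 to 42595 and was absent from all untreated VDR and siNfib whole lists, while 2 of 3 siNC and 1 of 3 siNfia libraries kept it. Untreated VDR replicate 3 accounted for 5 of the 7 regions of this window that were found in 1 library alone.

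Cdkn2a, which makes p16 and p19Arf, had fewer summits in the cell line than in tumor. Kept summits numbered 6, 8 and 9 in GNP, 8, 11 and 8 in hyperplasia and 9, 11 and 8 in tumor, then 1, 1 and 2 in untreated VDR cells, 2, 3 and 4 with siNC, 4, 4 and 6 with siNfia and 4, 4 and 4 with siNfib. Tumor against GNP was not called (0.26, SE 0.18, limma adjusted p = 0.411). It was called with the 50000 highest summits, at 5, 7 and 6 in tumor and 3, 3 and 2 in GNP (0.94, adjusted p = 0.0266). With whole lists the difference was -0.37 (adjusted p = 0.303). Every VDR library lay below every tumor library; groups did not overlap at 50.3% of all genes for untreated cells and 42% for siNC. The difference from tumor was -2.16 (SE 0.29, limma adjusted p = 2.74e-05) untreated and -1.39 (SE 0.29, adjusted p = 0.00261) with siNC, or 4.48-fold and 2.62-fold lower on the count + 1 scale. Both calls held without each library in turn (adjusted p 0.000104 to 0.000603 and 0.005 to 0.0262).

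The window also holds Cdkn2b, the neighbouring gene of the INK4 inhibitor p15, and part of the lower number lay there. The region at chr4:89310375-89310874, inside Cdkn2b and 407 bp from its start, ranked 34638, 41984 and 39130 in GNP, 27633, 25533 and 31674 in hyperplasia and 14159, 31043 and 24991 in tumor. It was in 0 of 12 VDR whole lists. The Cdkn2b window, which overlaps that of Cdkn2a, had 6 to 9 kept summits in tumor, 0 to 1 in untreated VDR cells and 1 to 3 with siNC. The gene body of Cdkn2b alone held 2 in each tumor library and 0 in every untreated VDR and siNC library. The region at chr4:89295276-89295775, 907 bp before the p19Arf start, was kept in 8 of 9 primary libraries and no VDR library.

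Kept summits at the starts of Cdkn2a were also found in the cell line. At the start of p16, the region at chr4:89281928-89282427 was kept in 20 of 21 libraries, at ranks 56205, 79113 and 76171 in GNP, 37818, 32704 and 34782 in tumor and 34190, 23018 and 5804 in untreated VDR cells. The region at the p19Arf start, chr4:89294563-89295062, lies over the stretch shown above, whose E2F match is at bases 99 to 92. It ranked 35376, 40106 and 36684 in GNP, 9604, 12390 and 36231 in hyperplasia and 11751, 14911 and 20510 in tumor, and was kept in 1 of 3 untreated VDR libraries and all 9 siRNA-treated ones. The promoter rank of Cdkn2a, taken over both starts, was stronger in tumor than in GNP by -1.29 (SE 0.39, adjusted p = 0.0515) and in hyperplasia by -1.20 (SE 0.39, adjusted p = 0.0923), and neither passed. Without hyperplasia replicate 3, whose rank of 36231 fell inside the GNP range, the second was called (-1.78, adjusted p = 0.0012), and the first was called at 2 kb (adjusted p = 0.0484) and without tumor replicate 3 (-1.50, adjusted p = 0.0489). Against tumor the rank differed by 0.12 (SE 0.64, adjusted p = 0.908) in untreated VDR cells and 1.26 (SE 0.64, adjusted p = 0.192) with siNC; in a fit without the untreated VDR libraries the latter was called (adjusted p = 0.0101).

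**Figure D4:**
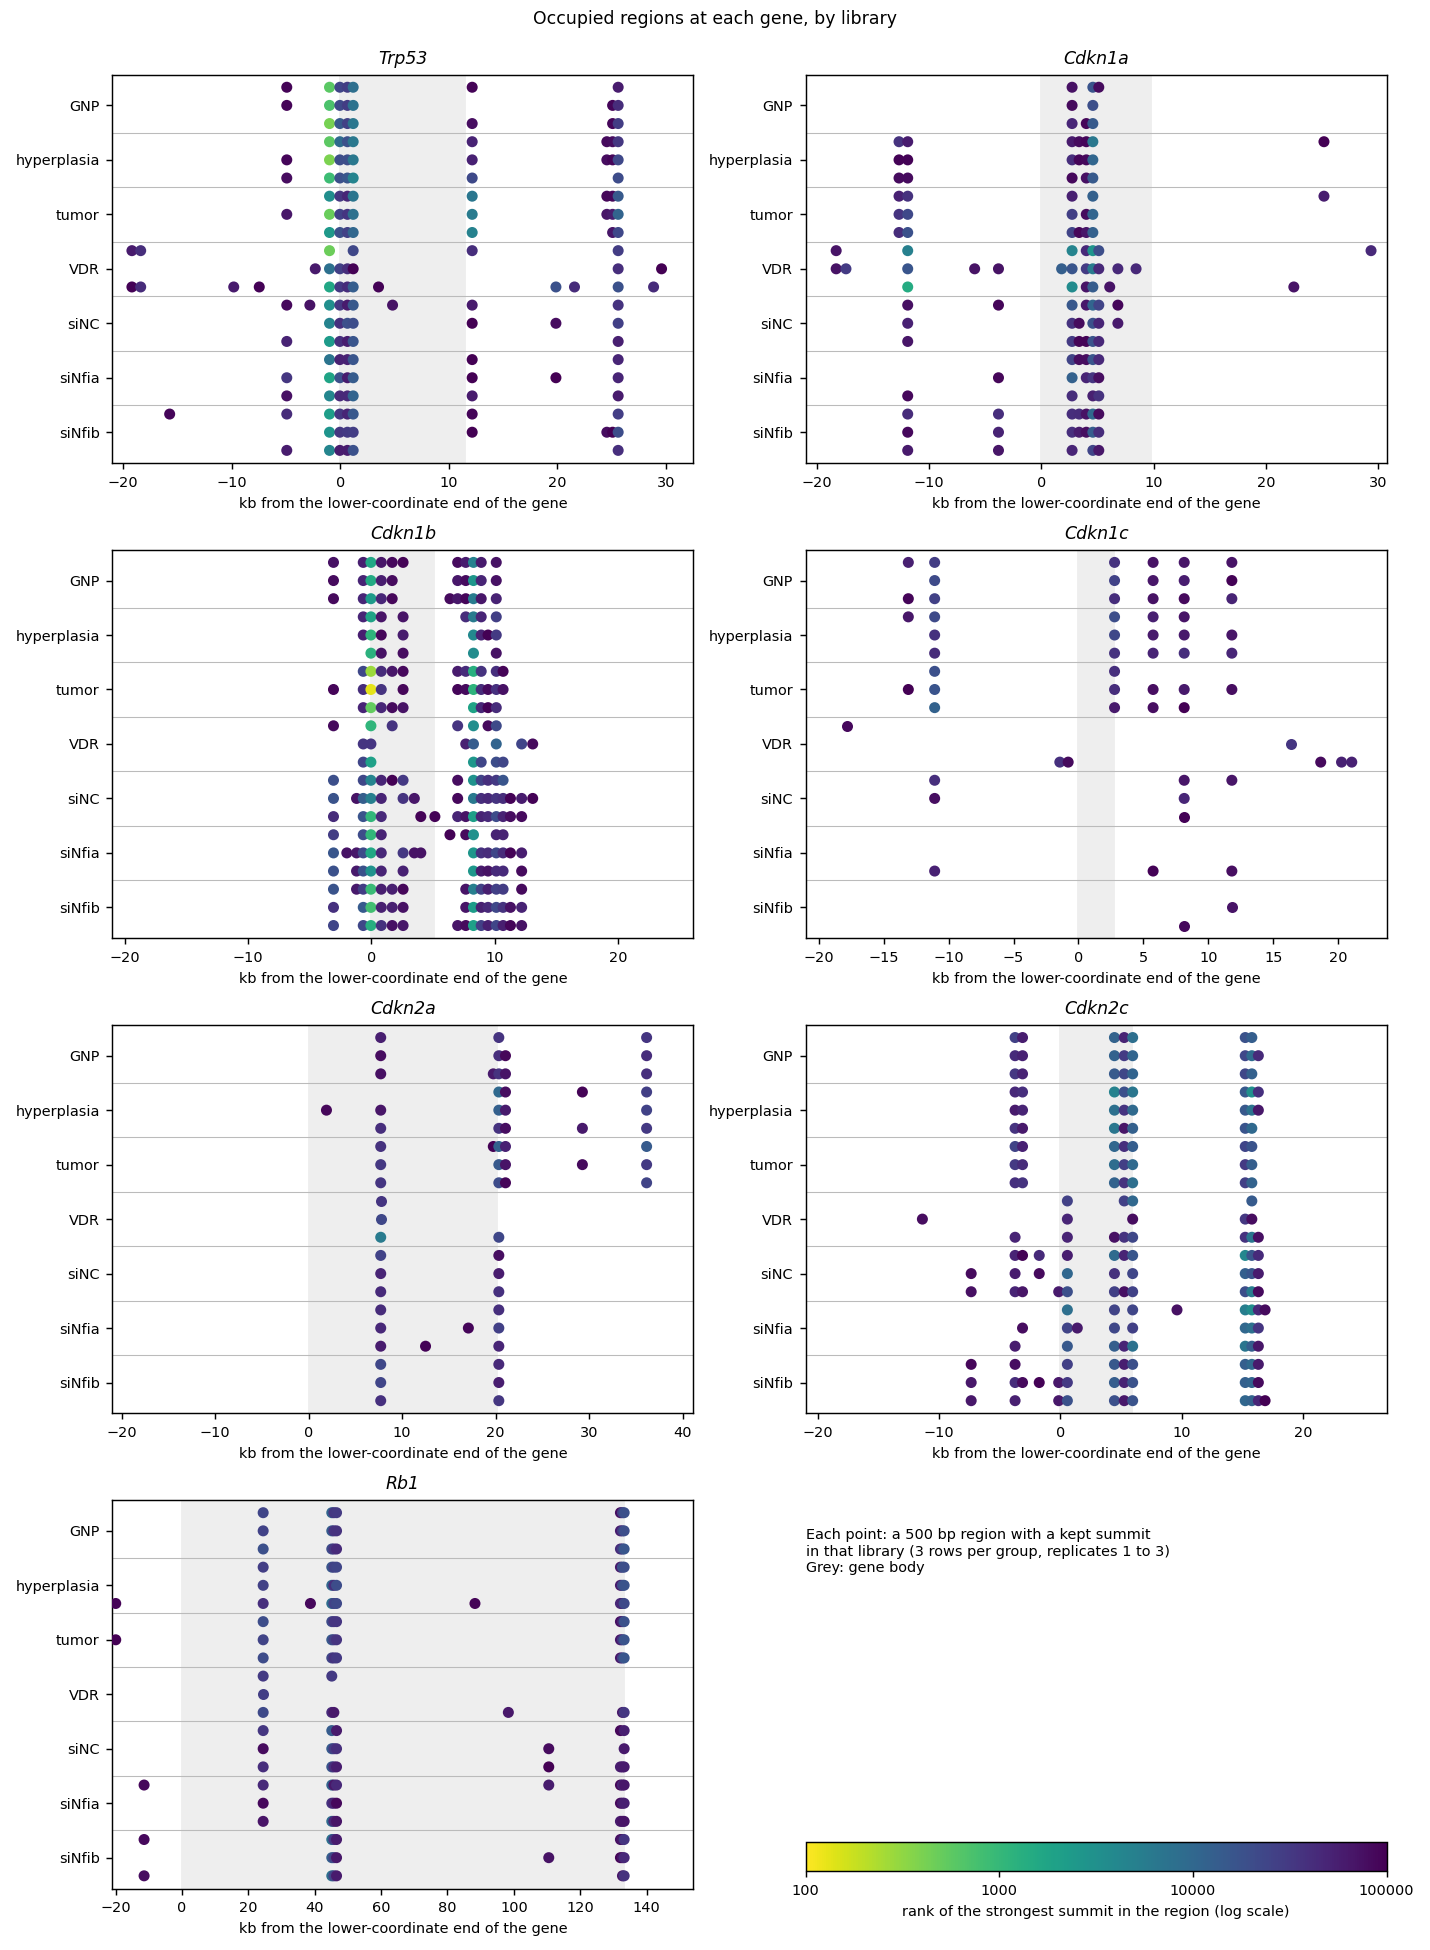
Regions of 500 bp with a kept summit (points, coloured by rank on a log scale) along each gene, as kb from its lower-coordinate end (horizontal axis), in 21 library rows grouped by 7 groups; grey is the gene body. Cdkn1a shows the upstream regions absent from GNP rows, Cdkn1c and Cdkn2a columns that stop at the VDR rows, Cdkn2c a column present only in the 12 VDR rows, and Rb1 a column missing from the siNfib rows.

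Cdkn2c, which makes p18, had similar summit numbers in the 3 stages and varied in the cell line. It had 13, 13 and 12 kept summits in GNP, 14, 14 and 12 in hyperplasia and 14, 13 and 13 in tumor. Stage differences were 0.00 to 0.07 (SE 0.09, adjusted p 0.685 to 1). Untreated VDR cells had 6, 5 and 10, below tumor by -0.89 (SE 0.22, limma adjusted p = 0.00351) or 1.85-fold, but the call was lost by occupied regions (-0.31, adjusted p = 0.246), against the local level (-0.42, adjusted p = 0.171) and in the gene body (-0.69, adjusted p = 0.129). With siNC the numbers were 17, 13 and 18 (0.23, SE 0.22, adjusted p = 0.475). The distal start region at chr4:109666575-109667074, over the GC-rich stretch shown above, was occupied in all 21 libraries, and its ranks were 8192 to 11031 in GNP and 8300 to 13079 in tumor. The promoter rank, taken over both starts, was 8192, 10675 and 11031 in GNP, 4763, 7992 and 6655 in hyperplasia and 10357, 8772 and 8300 in tumor. Hyperplasia thus overlapped neither GNP nor tumor, as at 24.6% and 23.8% of all promoters, with differences of -0.64 (SE 0.29, adjusted p = 0.258) from GNP and 0.52 (SE 0.29, adjusted p = 0.278) for tumor against hyperplasia. No promoter rank difference at Cdkn2c passed the test, the largest estimate being 1.44 (SE 0.70, adjusted p = 0.139) in untreated VDR cells against tumor, which was called without VDR replicate 1 (2.10, adjusted p = 0.0305).

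A region in the gene body of Cdkn2c, chr4:109661193-109661692 and 567 bp above the lower gene end, was kept in 0 of 9 primary and 12 of 12 VDR libraries. It was the single region of the 7 windows gained in untreated VDR cells against tumor, where 1.06% of all regions were gained and 1 of 90 at these genes. It ranked 25978, 49340 and 50087 in untreated cells and 8135 to 56868 with siRNA. Whole primary lists held it in 5 of 9 libraries, at ranks from 105568 to 190815. The window also takes in the start of Faf1, an adaptor of protein degradation, whose region at chr4:109676397-109676896 was occupied in all 21 libraries and is shared with that gene.

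Rb1, which makes the retinoblastoma protein, had 12, 10 and 13 kept summits in GNP, 12, 12 and 16 in hyperplasia and 11, 13 and 12 in tumor. In untreated VDR cells there were 2, 1 and 7, below every tumor library. Untreated VDR and tumor did not overlap, in either direction, at 50.3% of all genes. The difference at Rb1 was -1.84 (SE 0.39, limma adjusted p = 0.00119) or 3.57-fold. With siNC there were 7, 8 and 14, which overlapped tumor (-0.34, SE 0.39, adjusted p = 0.571). The untreated call was lost against genes within 2 Mb (-0.59, adjusted p = 0.129).

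At the upper gene end of Rb1 the promoter rank was 18743, 19805 and 15935 in GNP, 17610, 17247 and 20990 in hyperplasia and 17891, 16693 and 15699 in tumor and differed by -0.15 to 0.04 between stages (SE 0.24, adjusted p 0.746 to 0.959). It was 54062, 62208 and 57373 with siNC, and in untreated VDR cells it was kept in 1 of 3 libraries, at 33138. It was weaker than in tumor by 2.05 (SE 0.43, adjusted p = 0.00469) untreated and 1.79 (SE 0.43, adjusted p = 0.0125) with siNC, or 4.13-fold and 3.45-fold. The untreated value is limited by the rank given to the 2 libraries with no kept summit. The siNC call was lost without tumor replicate 2 or 3 or siNC replicate 2 (adjusted p 0.0501 to 0.0528). Of its 13 regions 7 were occupied in all 9 primary libraries, a share of 53.8% against 14.8% of all regions, and 3 of them, between 45122 and 46556 bp above the lower gene end, also lie in Lpar6, a receptor gene nested inside Rb1. The first of these, chr14:73237730-73238229 and 89 bp from the Lpar6 start, was kept in 20 of 21 libraries and ranked 14823 to 23508 in tumor and 13934 to 15644 with siNC.

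Knockdown of Nfia or Nfib gave no call at the 7 genes. By number 0 of 6 tested genes were called with siNfia, where 0% of 13538 genes were called and 1508 had an unadjusted p below 0.05, and 0 of 6 with siNfib, where 0.938% were called and 1908 had an unadjusted p below 0.05. By promoter rank 0 of 6 were called with siNfia (0.0084% of 11911 genes; 1231 at an unadjusted p below 0.05) and 0 of 6 with siNfib (0.563%; 1058). The lowest adjusted p values were 0.312 for Cdkn2c number with siNfia (-0.41, SE 0.14), where 12, 12 and 11 summits stood against 17, 13 and 18 with siNC, and 0.412 for Cdkn1b rank with siNfib (-1.51, SE 0.59). The Cdkn1b ranks with siNfib, 931, 801 and 1330, overlapped those with siNC at 1055. Groups did not overlap, with no call, at the Cdkn2c number with siNfia (8.62% of all genes did not overlap), at the Cdkn1b number with siNfib (26 to 31 against 24 to 25; 12.8% of all genes), and at the ranks of Rb1 (34193 to 45714 against 54062 to 62208) and Cdkn1a (39538 to 49166 against 15453 to 36602) with siNfib (15.2%). Their siNfib differences were 0.22 (SE 0.14, adjusted p = 0.507) for Cdkn1b, -0.57 (SE 0.29, adjusted p = 0.589) for Rb1 and 0.74 (SE 0.43, adjusted p = 0.651) for Cdkn1a.

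In single regions, 2 of 72 were lost with siNfia and 1 of 68 with siNfib, and 0 were gained, against 0.856%, 2.19% and, for gains, 0.973% and 3.38% of all regions. With siNfia these were chr6:134927160-134927659 past Cdkn1b and chr7:143466227-143466726, at the start of the noncoding gene Gm33663 near Cdkn1c. With siNfib it was an intragenic Rb1 region, chr14:73217047-73217546, 24439 bp above the lower gene end. The Rb1 region was kept in the other 18 libraries, at ranks 18642 to 39319 in primary cells, 33448, 81700 and 39983 with siNC and 45176, 86887 and 69409 with siNfia. It was absent from all 3 siNfib whole lists. A 3 against 3 comparison of a single region cannot reach an exact two-sided p below 0.1, and the regions were chosen after their values were seen.

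The 113 regions of the 7 windows were shared more widely than regions at large: 10 (8.85%) were occupied in all 21 libraries against 5.47% of all regions, 29 (25.7%) in all 9 primary libraries against 14.8%, and 35 (31%) in 1 library against 49%. No test was made, since regions of a window share a gene. The regions occupied everywhere were 3 each at Trp53 and Cdkn1b and 2 each at Cdkn1a and Cdkn2c. They include regions beside the starts of the neighbours Wrap53, Lockd and Faf1. The windows are drawn around genes, and no share was taken for the windows of other genes, so the wider sharing cannot be called particular to these genes. Between tumor and hyperplasia 0 of 60 were gained or lost (1.85% and 2.03% of all regions). In untreated VDR cells 11 of 90 were lost against tumor (8.48% of all regions) and with siNC 5 of 75 (10.3%), with 3 gained (4.46%).

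The 51 other genes of the pathway were called about as often as genes at large. The lists were 3 other CDK inhibitors, 10 RB family and E2F genes, 16 p53 regulators, relatives and targets, 11 CDKs and cyclins and 11 other tumour suppressors. By number, 1 of 48 tested was called in hyperplasia against GNP (4.51% of all genes), namely Cdk6, the kinase that p16 and p18 inhibit, with 32.7 ± 2.52 summits against 24.3 ± 1.53 (SD, n = 3; 0.41, SE 0.09, adjusted p = 0.0427). In tumor against hyperplasia 0 of 48 were called (0.198% of all genes). Against GNP, 2 of 48 were called (6.63%). Ccnd2, the D-type cyclin of granule progenitors, rose in tumor to 28.3 ± 3.21 summits from 18.7 ± 2.31 (0.58, SE 0.14, adjusted p = 0.0399), and Trp73, a relative of Trp53, fell to 11.3 ± 0.577 from 15.3 ± 0.577 (-0.41, SE 0.09, adjusted p = 0.0287). The median differences of the 48 genes were -0.01, 0.02 and 0.00 for hyperplasia against GNP, tumor against hyperplasia and tumor against GNP, beside -0.02, -0.01 and -0.05 over all genes.

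By promoter rank, 3 of 51 were called in tumor, against hyperplasia and against GNP alike, all stronger (6.75% and 7.75% of all genes were called), and 0 in hyperplasia against GNP (4.46%). They were Ccnd2, Gadd45a, a p53-induced growth arrest gene, and Bbc3, the p53-induced killer gene Puma. Gadd45a ranked 35 to 130 in tumor, 204 to 737 in hyperplasia and 307 to 422 in GNP (-2.64, SE 0.65, adjusted p = 0.0253 against hyperplasia). Bbc3 ranked 16271 to 23735 in tumor and 34178 to 44528 in hyperplasia (-1.04, SE 0.24, adjusted p = 0.016). Ccnd2 ranked 6958 to 16267 in tumor and 33223 to 36232 in GNP (-1.84, SE 0.29, adjusted p = 0.000932). Other targets in the list of 16 p53 genes did not pass, and its median rank difference in tumor against GNP was 0.36, beside 0.18 over all genes.

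Untreated VDR cells differed from tumor by number at 27 of 48 of these genes, 9 higher and 18 lower (48.6% of all genes were called), and by rank at 10 of 50, all weaker (29.3% of all genes). With siNC 11 of 48 differed by number, 6 higher and 5 lower (25.2%), and 9 of 50 by rank (21%). These counts lie near or below the shares of all genes. Cdkn2b had the largest fall in number, to 0.333 ± 0.577 summits untreated and 2 ± 1 with siNC from 7.33 ± 1.53 in tumor (-2.71, SE 0.38, adjusted p = 4.03e-05, and -1.51, SE 0.38, adjusted p = 0.00836). Its regions are in part those counted above for Cdkn2a. Tsc2, a suppressor of mTOR signalling, rose to 16.7 ± 2.52 untreated and 9.67 ± 1.53 with siNC from 4 ± 1 in tumor (1.83 and 1.10, SE 0.21, adjusted p = 7.02e-06 and 0.00146). Ccnd2 had no kept promoter summit in any siNC library and ranked 6958 to 16267 in tumor (3.37, SE 0.40, adjusted p = 0.000179). In the knockdowns 0 of 47 were called by number and 0 of 48 by rank.

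Genes elsewhere whose summit numbers followed those of each member across the 21 libraries were found by Pearson correlation of the log2 numbers over at least 13867 genes more than 1 Mb away. The most alike were Jdp2 and Ski for Trp53 (r = 0.77 and 0.76), Lima1 and Gfpt1 for Cdkn1a (0.80 each), Ing2 and Ranbp1 for Cdkn1b (0.93 and 0.89) and Rasl10a and Nfyb for Cdkn1c (0.86 and 0.85). They were Adgrl2 and Rab2a for Cdkn2a (0.96 each), Acot13 and Lpxn for Cdkn2c (0.93 each) and Myzap and Pamr1 for Rb1 (0.96 each). These are descriptions over libraries that share their groups and their difference between primary and cell line samples, with no test.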

How the data were processed

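Omni-ATAC summit lists of 21 mouse libraries (7 groups of 3) were used as the authors deposited them. Bowtie2, Picard, MACS2 and mm10 are named, without versions or settings, per the submitters' processing notes. Read shifting and filtering are not stated. The deposited score is a -log10 p or q value per summit. Which of them it is, and the calling threshold, are not stated. It depends on depth, so it served only to rank summits within a list. Equal scores were ordered by chromosome name, read as text, and then by position. In untreated VDR replicate 3, regions of the Trp53 window (chromosome 11) ranked 95424 to 95426 and were kept. Regions at Cdkn1a (chromosome 17) ranked 106964 to 106967, a region at Cdkn1b (chromosome 6) ranked 126465, and none of these was kept. Whether a weak summit was kept there may thus depend on its chromosome name. The effect on the results was not tested.

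The 100000 highest summits per library were kept. Per gene, kept summits in the body and 20 kb on each side were counted and fitted as log2(count + 1) with limma 3.58.1 (trend; R 4.3.3), for genes with a mean of at least 3. Promoter ranks were fitted as log2 rank, the rank after the last kept one where no summit was kept, for genes with a summit in at least 3 libraries. Each fit held 9 libraries: GNP, hyperplasia and tumor; tumor, VDR and siNC; or siNC, siNfia and siNfib. The fits were tested on simulated data. Regions of 500 bp were built greedily by rank and were gained or lost at 3 of 3 against 0 of 3, with no test. The genes named beside the 7 are, for each measure and comparison, called members of the lists. Members and lists were chosen with earlier results of these data known. Coordinates are 1-based on mm10. Alternatives are given at the end.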

Additional observations from a re-analysis of the deposited data

How the results depend on the processing

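The numbers of the 7 genes called by summit number changed as follows. For hyperplasia against GNP, 1 became 0 with whole lists, in the gene body and with the untreated VDR libraries in the fit, and was 0 to 1 without each replicate in turn. It was also 0 with the 50000 highest summits, where Cdkn1a fell below the mean of 3 and was not tested. For tumor against GNP, 1 became 0 with whole lists, in the gene body, with the VDR libraries in the fit and with the replicate block, and was 0 without each replicate. With the 50000 highest summits it stayed at 1, but the gene called was Cdkn2a in place of Cdkn1a, which was again not tested. For untreated VDR cells against tumor 3 became 6 with whole lists (3 to 4 without each replicate). For siNC against tumor 2 became 1 with the 50000 highest summits and against the local level, and 0 in the gene body and by occupied regions (1 to 2 without each replicate). In both of these comparisons Cdkn2a fell below the mean of 3 with the 50000 highest summits, in the gene body and by occupied regions. It was therefore not tested there. By promoter rank, the replicate block gave 1 in place of 0 for hyperplasia against GNP (Cdkn2a, adjusted p = 0.0444), 2 in place of 1 for tumor against hyperplasia (Cdkn1c, 0.0408) and 3 in place of 1 for tumor against GNP (Cdkn1a, 0.0428, and Cdkn2a, 0.0205). The VDR libraries in the fit gave 0 for both tumor comparisons, and 2 kb gave 2 for tumor against GNP. Without each replicate in turn the rank counts ran from 0 to 1, 1 to 2 and 1 to 2 for these comparisons, 3 to 5 for untreated VDR and 1 to 3 for siNC against tumor. The knockdown counts stayed at 0 in every alternative that was run.

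Regions gained or lost were 5 for hyperplasia against GNP (2 at 1000 bp, 0 with the 50000 highest, 3 with whole lists, 5 to 7 without each replicate), 0 for tumor against hyperplasia (2 with the 50000 highest, 1 with whole lists, 0 to 2), 2 for tumor against GNP (4 with either list, 2 to 4), 12 for untreated VDR against tumor (21 at 250 bp, 7 with the 50000 highest, 12 to 21), 8 for siNC against tumor (4 at 1000 bp, 8 to 12), 2 for siNfia (1 at 1000 bp, 0 with the 50000 highest, 1 with whole lists, 2 to 5) and 1 for siNfib against siNC (3 at 250 bp, 5 with whole lists, 1 to 5). Directions turned for the Cdkn1a number in tumor against GNP with whole lists (-0.07), the Cdkn2a number there (-0.37), the Cdkn1a number in untreated VDR cells against the local level (-1.44), the Cdkn1b number there with the 50000 highest (0.04), and at 2 kb for the Cdkn1a rank in tumor against hyperplasia (0.23) and the Trp53 rank in untreated VDR cells (0.21). The cause was not tested.

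Counts over all genes by number moved from 636 to 130 (whole lists), 136 (VDR in the fit) and 292 (replicate block) for hyperplasia against GNP, from 935 to 525, 213 and 512 under the same settings, 609 with the 50000 highest and 418 in the gene body for tumor against GNP, and from 28 to 10 with the replicate block and 249 with no filter for tumor against hyperplasia. They moved from 6611 to 3643, 2893 and 2742 (50000 highest, gene body, local level) for untreated VDR, from 3433 to 1381, 1721 and 5434 (gene body, local level, untreated VDR left out) for siNC against tumor, from 0 to 26 (whole lists) for siNfia and from 127 to 5 (occupied regions), 18 (whole lists), 33 (VDR in the fit), 61 (50000 highest) and 63 (gene body) for siNfib. Without each replicate in turn they were 139 to 362 for hyperplasia against GNP, 5 to 37 for tumor against hyperplasia, 220 to 373 for tumor against GNP, 5219 to 6922 for untreated VDR and 2108 to 2583 for siNC against tumor, 0 for siNfia and 3 to 109 for siNfib. By rank, VDR in the fit gave 267 in place of 596, 133 in place of 902 and 366 in place of 1035 for the stages and 4 in place of 67 for siNfib, all 21 libraries in the fit gave 4236 in place of 2710 for siNC against tumor (5071 with untreated VDR left out), and 2 kb gave 11 in place of 1 for siNfia. Without each replicate the rank counts were 237 to 613, 472 to 1185 and 473 to 824 for the stages in that order, 1759 to 4411 and 1008 to 1861 for untreated VDR and siNC against tumor, 0 to 5 for siNfia and 14 to 43 for siNfib.

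Same-numbered libraries did not deviate together (27 pairs, r from -0.041 to 0.079), so the numbers were not taken to pair the libraries. Leaving out untreated VDR, or siNC, from the cell line fits was chosen after seeing the data. Read depth is unknown, and the low scores of the untreated VDR lists limit what their absent summits show.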
